A study of Mus musculus with 8 samples.

Results

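The comparison was between osteoclast precursor (OCP) cells treated with RANKL and PRDX1 together and OCP cells treated with RANKL alone. The labels placed 4 of the 8 RNA-seq libraries of the series in it, 2 in each group, and 11700 of the 25124 genes in the table, those with a mean of at least 0.5 FPKM over the 8 libraries, were tested. FPKM is the number of reads counted on a gene divided by its transcript length and by the library total. Per the labels, the marrow came from C57BL/6 mice aged 6 to 8 weeks, and the culture methods of the study named ICR mice instead. Bone marrow cells were kept in 5 ng/mL M-CSF for 16 h, and the non-adherent cells were expanded in 30 ng/mL M-CSF for 3 days before treatment. The RANKL group then received 100 ng/mL RANKL with 30 ng/mL M-CSF for 48 h, and the PRDX1 + RANKL group received 200 nM recombinant PRDX1 in addition. The other 4 libraries, 2 with M-CSF alone (no PRDX1 + no RANKL) and 2 with 200 nM PRDX1 and no RANKL, were used to set the values beside those of cells that never saw RANKL. The PRDX1 was a His-tagged protein made in Escherichia coli and passed over an endotoxin removal resin. No label said whether the 2 libraries of a group came from separate cultures or animals, so the p-values below measure the spread between these libraries, which may be technical.

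RANKL binds its receptor RANK (Tnfrsf11a) on macrophage-like precursors and, through TRAF6, NF-κB and the AP-1 factor Fos, turns on Nfatc1, the master transcription factor of the osteoclast. Nfatc1 then drives the genes of cell fusion, acid secretion and matrix digestion. Peroxiredoxin 1 is an antioxidant enzyme of the cytosol, and when it is outside the cell it has been described as a ligand of Toll-like receptor 4 (TLR4). TLR4 signals through the adaptors Myd88 and Ticam1 to NF-κB and to interferon regulatory factors, and its usual products in macrophages are chemokines, cytokines, complement and interferon-stimulated genes. The comparison addressed which genes PRDX1 changed at an early time while RANKL was present.

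Reads on genes numbered 24542578 and 31267781 in the RANKL libraries and 41712973 and 38010293 in the PRDX1 + RANKL libraries, so that both libraries with PRDX1 were the deeper ones. The 10 most abundant genes took 4.75% and 4.84% of those reads with RANKL and 7.19% and 7.08% with PRDX1 + RANKL. Of the variance among the 4 libraries, 86.9% lay on the axis that separated the groups and 8.24% on the next. The 10 macrophage markers were all detected, with summed levels of 11571 and 11124 FPKM with RANKL and 15040 and 14618 FPKM with PRDX1 + RANKL, and Adgre1, Cd14, Fcgr1 and Mertk passed the test as higher. In bulk RNA, fewer cells of a type and less RNA per cell cannot be told apart. Markers of mast cells and basophils were at or under the limit of 3 reads for all 6 genes, and those of T and NK cells summed to at most 1.48 FPKM and of B cells to at most 1.61 FPKM in the 4 libraries. Neutrophil markers summed to 3.81 and 2.10 FPKM with RANKL and to 6.44 and 7.36 FPKM with PRDX1 + RANKL, with 3 of 5 tested genes higher. Of those calls Prtn3, with a change of 0.45, was lost without RANKL replicate 2 and Mpo, with 0.57, without RANKL+PRDX1 replicate 2. Stromal markers summed to 8.52 and 10.6 FPKM with RANKL and 16.9 and 20.2 FPKM with PRDX1 + RANKL, with 2 of 4 tested genes higher, and the stromal genes Lum and Bglap were at or under 3 reads. Dendritic cell markers summed to 2.12 and 2.50 FPKM with RANKL and 3.90 and 5.02 FPKM with PRDX1 + RANKL, with 1 of 2 tested genes higher, and endothelial markers to 4.15 and 3.85 FPKM and then 5.50 and 5.95 FPKM, with none called. Erythroid and megakaryocyte markers summed to 43.5 and 39.3 FPKM with RANKL and 264 and 241 FPKM with PRDX1 + RANKL, nearly all of it Pf4, while Hba-a1 and Hbb-bs were at or under 3 reads. The part of these other cell types in the results was not tested.

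With PRDX1 added to RANKL, many osteoclast genes were lower and many inflammatory genes were higher. Of 19 resorption genes tested 10 were lower and none higher, against 4.17% lower among all genes tested, and they were led by Ctsk, Slc9b2, Mmp9 and Car2, which fell by more than 10-fold in FPKM. Subunits of the proton pump were lower in 4 of 19 cases and higher in 1, and fusion genes lower in 4 of 12 and higher in 2. Many chemokines, complement, interferon-stimulated genes, Schlafen genes and receptors of the macrophage surface were higher, led by Slfn4, Slfn1, Cfb and Ccl7, which rose by 10-fold or more. In all, 705 genes (6.03% of those tested) were higher and 488 (4.17%) lower with PRDX1, by limma on log2(FPKM + 1). A gene was called where its p, adjusted by the method of Benjamini and Hochberg, was under 0.05 and its change was 1.5-fold or more. At least a 2-fold change on that scale was seen for 245 of the higher and 140 of the lower genes, and at least a 4-fold change for 32 and 26. The 2 libraries of one group lay wholly above those of the other for all 1193 genes, a pattern that 27.9% of all genes tested showed upward and 43.1% downward. The median log2 fold change was 0.88 in the higher genes, -0.78 in the lower genes and -0.06 in all genes tested. The higher genes had a median of 7.80 FPKM with RANKL, rising to 17.5 FPKM, and the lower genes one of 12.3 FPKM, falling to 5.28 FPKM. One group was at under 3 reads for 10 of the higher and 6 of the lower genes.

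**Figure D1:**
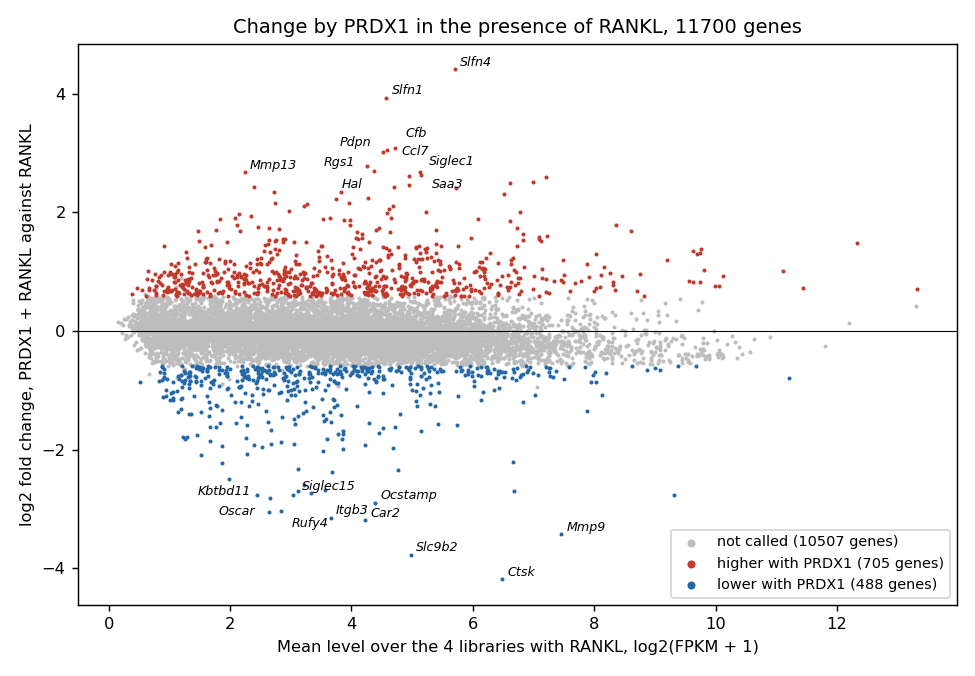
Differences between PRDX1 + RANKL and RANKL cells for all genes tested. The horizontal axis is the mean level over the 4 libraries with RANKL as log2(FPKM + 1), the vertical axis the log2 fold change of PRDX1 + RANKL against RANKL, and each point is 1 gene, with the 10 largest increases and decreases named. The 705 higher and 488 lower genes were spread over the whole range of levels.

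The largest increases were in a pair of Schlafen genes, which restrain proliferation and viral replication in myeloid and lymphoid cells. Slfn4 (chromosome 11, mm10, 83175186 to 83190216, plus strand) had 3.28 and 4.08 FPKM with RANKL and 99.4 and 96.9 FPKM with PRDX1 + RANKL. Slfn1, its neighbor on the same chromosome (83116820 to 83122670, plus strand), had 1.55 and 2.34 FPKM with RANKL and 44.1 and 43.5 FPKM with PRDX1. Both genes were low in every library without PRDX1 and high in every library with it, and their log2 fold changes were 4.41 (standard error 0.14, adjusted p = 1.33e-08) for Slfn4 and 3.94 (standard error 0.16, adjusted p = 7.07e-08) for Slfn1. Schlafen genes are similar in sequence, so reads can be split among them. Of the 7 Schlafen genes tested 4 were higher and none lower, and the other two that passed changed far less, Slfn8 by 0.92 and Slfn5 by 0.72.

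Cfb, which encodes complement factor B of the alternative pathway, had 4.10 and 5.02 FPKM with RANKL and 45.5 and 46.7 FPKM with PRDX1 + RANKL, a change of 3.09 (standard error 0.08, adjusted p = 5.60e-09). Ccl7, a chemokine that draws monocytes, had 3.88 and 4.48 FPKM with RANKL and 43.6 and 40.3 FPKM with PRDX1 + RANKL, a change of 3.05 (standard error 0.09, adjusted p = 1.24e-08). Podoplanin (Pdpn), a membrane mucin that inflammatory macrophages carry, rose from 4.86 and 3.29 FPKM to 39.9 and 39.8 FPKM. Rgs1, an inhibitor of chemokine receptor signaling, rose from 4.38 and 3.41 to 32.6 and 32.1 FPKM. Hal, the histidine ammonia-lyase that breaks down histidine, rose from 4.39 and 4.74 to 34.4 and 35.6 FPKM, and Siglec1 (CD169), a sialic acid receptor of macrophages, from 7.69 and 9.13 to 54.7 and 64.3 FPKM. For each of these genes the lower library with PRDX1 was above the higher library without it by more than 5-fold.

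Collagenase 3 (Mmp13) and the serum amyloid gene Saa3 completed the 10 largest increases. Mmp13 had 0.330 and 0.228 FPKM with RANKL, from 24 and 21 reads, and 7.37 and 6.95 FPKM with PRDX1 + RANKL. Its change of 2.67 on the log2 scale (standard error 0.10, adjusted p = 4.76e-08) was understated by the pseudocount of 1, since the means differed 25.7-fold. Saa3 had 10.1 and 7.72 FPKM with RANKL and 62.8 and 56.8 FPKM with PRDX1 + RANKL, a change of 2.63 (standard error 0.17, adjusted p = 1.61e-06). Plk2, a stress-induced kinase, rose from 2.07 and 2.10 FPKM to 11.5 and 11.6 FPKM, a change of 2.02 (standard error 0.08, adjusted p = 4.79e-08).

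The promoters of Mmp13, Saa3 and Plk2 are shown. Among genes with a promoter sequence, these were the called genes with the largest increases and a κB-type or interferon-response-type match wholly before the start site. The promoter sequences are those of RefSeq on GRCm38.p6 and run from 250 bases before to 50 bases after the start of transcription. The letters searched on both strands were GGGA, any 2 bases and TTCC for the κB type, and GAAA, any 2 bases and GAAA for the interferon-stimulated response element (ISRE) type. In each 60-base window, written 5′ to 3′ on the strand of the gene, capitals mark the ISRE-type match, at positions -146 to -137 before the start site in Mmp13 (chr9:7272343-7272402, plus strand), -125 to -116 in Saa3 (chr7:46715767-46715826, minus strand) and -219 to -210 in Plk2 (chr13:110394800-110394859, plus strand).
Mmp13: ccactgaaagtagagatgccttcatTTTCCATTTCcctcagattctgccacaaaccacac
Saa3: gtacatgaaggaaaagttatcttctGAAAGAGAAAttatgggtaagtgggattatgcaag
Plk2: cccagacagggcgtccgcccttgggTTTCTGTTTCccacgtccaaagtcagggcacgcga
Of all 32851 promoters in the table, 3.44% held an ISRE-type and 1.47% a κB-type match. Among the 9226 tested genes with a promoter the shares were 3.48% and 1.54%. A promoter was found for 74.6% of the higher and 75% of the lower genes, under the 80% needed, so a comparison of the shares between the sets is void. A match is a run of letters and not evidence of binding.

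The largest decreases were in the genes with which osteoclasts dissolve bone. Ctsk, the collagen-digesting cathepsin K, had 169 and 167 FPKM with RANKL and 8.12 and 8.46 FPKM with PRDX1 + RANKL, a change of -4.19 on the log2 scale (standard error 0.10, adjusted p = 4.08e-09). Slc9b2, a sodium/proton antiporter that osteoclasts use (chromosome 3, 135307700 to 135342767, plus strand), had 55.0 and 60.6 FPKM with RANKL and 3.35 and 3.23 FPKM with PRDX1, a change of -3.77 (standard error 0.09, adjusted p = 4.08e-09). Both RANKL libraries held more than 15-fold the level of either PRDX1 + RANKL library. Without RANKL, Ctsk stayed at or under 0.324 FPKM and Slc9b2 at or under 0.127 FPKM in all 4 libraries, with or without PRDX1, so that in the PRDX1 + RANKL libraries both genes were lower than with RANKL but above the level of cells without RANKL.

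The gelatinase Mmp9 had 294 and 345 FPKM with RANKL and 27.7 and 29.8 FPKM with PRDX1 + RANKL, a change of -3.43 (standard error 0.10, adjusted p = 1.01e-08). Carbonic anhydrase 2 (Car2), which supplies protons for acid secretion, fell from 32.6 and 32.4 to 3.24 and 2.16 FPKM, and Itgb3, the β3 integrin of the sealing zone, from 20.5 and 22.8 to 1.53 and 1.58 FPKM. Itgb3 with PRDX1 + RANKL was no higher than in cells with M-CSF alone, which had 1.80 and 1.95 FPKM. Oscar, a costimulatory receptor of RANK signaling, fell from 8.88 and 11.4 to 0.333 and 0.341 FPKM, a 30.0-fold drop in mean FPKM. Rufy4 had 11.6 and 11.9 FPKM with RANKL and 0.373 and 0.760 FPKM with PRDX1 + RANKL. Ocstamp, a membrane protein needed for fusion, fell from 34.7 and 37.1 to 4.16 and 3.73 FPKM, Kbtbd11 from 9.59 and 10.5 to 0.494 and 0.626 FPKM and Siglec15, a receptor that pairs with DAP12, from 13.2 and 13.4 to 0.851 and 1.38 FPKM. Calcr, the calcitonin receptor, missed the level filter, with 98 and 157 reads in the RANKL libraries, 0 and 1 in the PRDX1 + RANKL libraries and 0 in every library without RANKL.

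**Figure D2:**
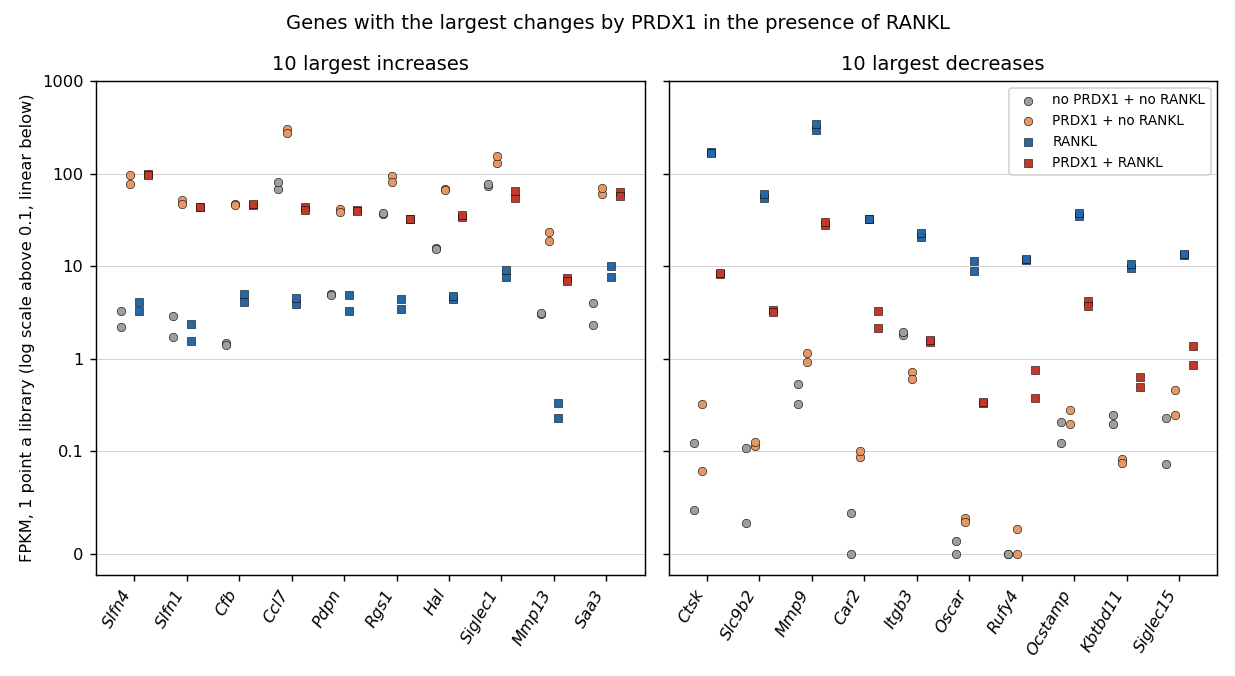
FPKM of the 10 genes with the largest increases (left) and decreases (right) by PRDX1 in the presence of RANKL. Each point is 1 library, 2 for each of the 4 groups, on a log axis that is linear below 0.1. The groups do not overlap for any gene called with RANKL, so the gap between RANKL and PRDX1 + RANKL in these 20 genes follows from how they were chosen.

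The promoters of Rufy4, F2r and Prdm1 are shown. Among genes with a promoter sequence, these were the called genes with the largest decreases and an AP-1-type or E-box match wholly before the start site. F2r encodes a thrombin receptor and fell from 5.00 and 5.03 to 0.305 and 0.272 FPKM, a change of -2.22 (standard error 0.11, adjusted p = 2.61e-07). Prdm1 (Blimp1) represses the repressors of osteoclast differentiation, and it fell from 9.18 and 9.07 to 1.605 and 1.81 FPKM, a change of -1.90. The letters searched on both strands were TGANTCA for AP-1 and CACGTG for the E-box, and capitals mark the AP-1-type match at positions -41 to -35 in Rufy4 (chr1:74125473-74125532, plus strand), -204 to -198 in F2r (chr13:95618638-95618697, minus strand) and -48 to -42 in Prdm1 (chr10:44458764-44458823, minus strand).
Rufy4: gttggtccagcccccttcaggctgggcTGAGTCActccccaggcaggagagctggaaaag
F2r: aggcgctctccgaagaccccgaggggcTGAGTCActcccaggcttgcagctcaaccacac
Prdm1: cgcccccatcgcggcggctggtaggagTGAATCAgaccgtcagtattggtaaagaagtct
The AP-1-type letters occurred in 7.81% and the E-box in 7.15% of all promoters in the table. Among the 9226 tested genes with a promoter the shares were 5.13% and 10.3%. Among the 10 largest increases, Mmp13, Hal and Slfn4 also held an AP-1-type match and Pdpn an E-box. Cfb, Ccl7, Rgs1 and Siglec1 had no promoter sequence to search. The same held for Mmp9, Car2, Itgb3, Ocstamp, Kbtbd11 and Siglec15 among the 10 largest decreases.

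Genes were also grouped in lists by their role. Of the 43 lists, those with the largest shares of higher members were CC chemokines, interferon-stimulated genes and complement, and those with the largest shares of lower members were resorption genes, the TCA cycle and respiratory complexes III to V. Each list is described by its count and, for most lists, its median log2 fold change. These are to be read against 6.03% higher, 4.17% lower and a median of -0.06 over all genes tested. Of 18 tested genes that the study names, 5 were higher and 6 lower, and since the study chose some of them on these samples, this count is not independent evidence.

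**Figure D3:**
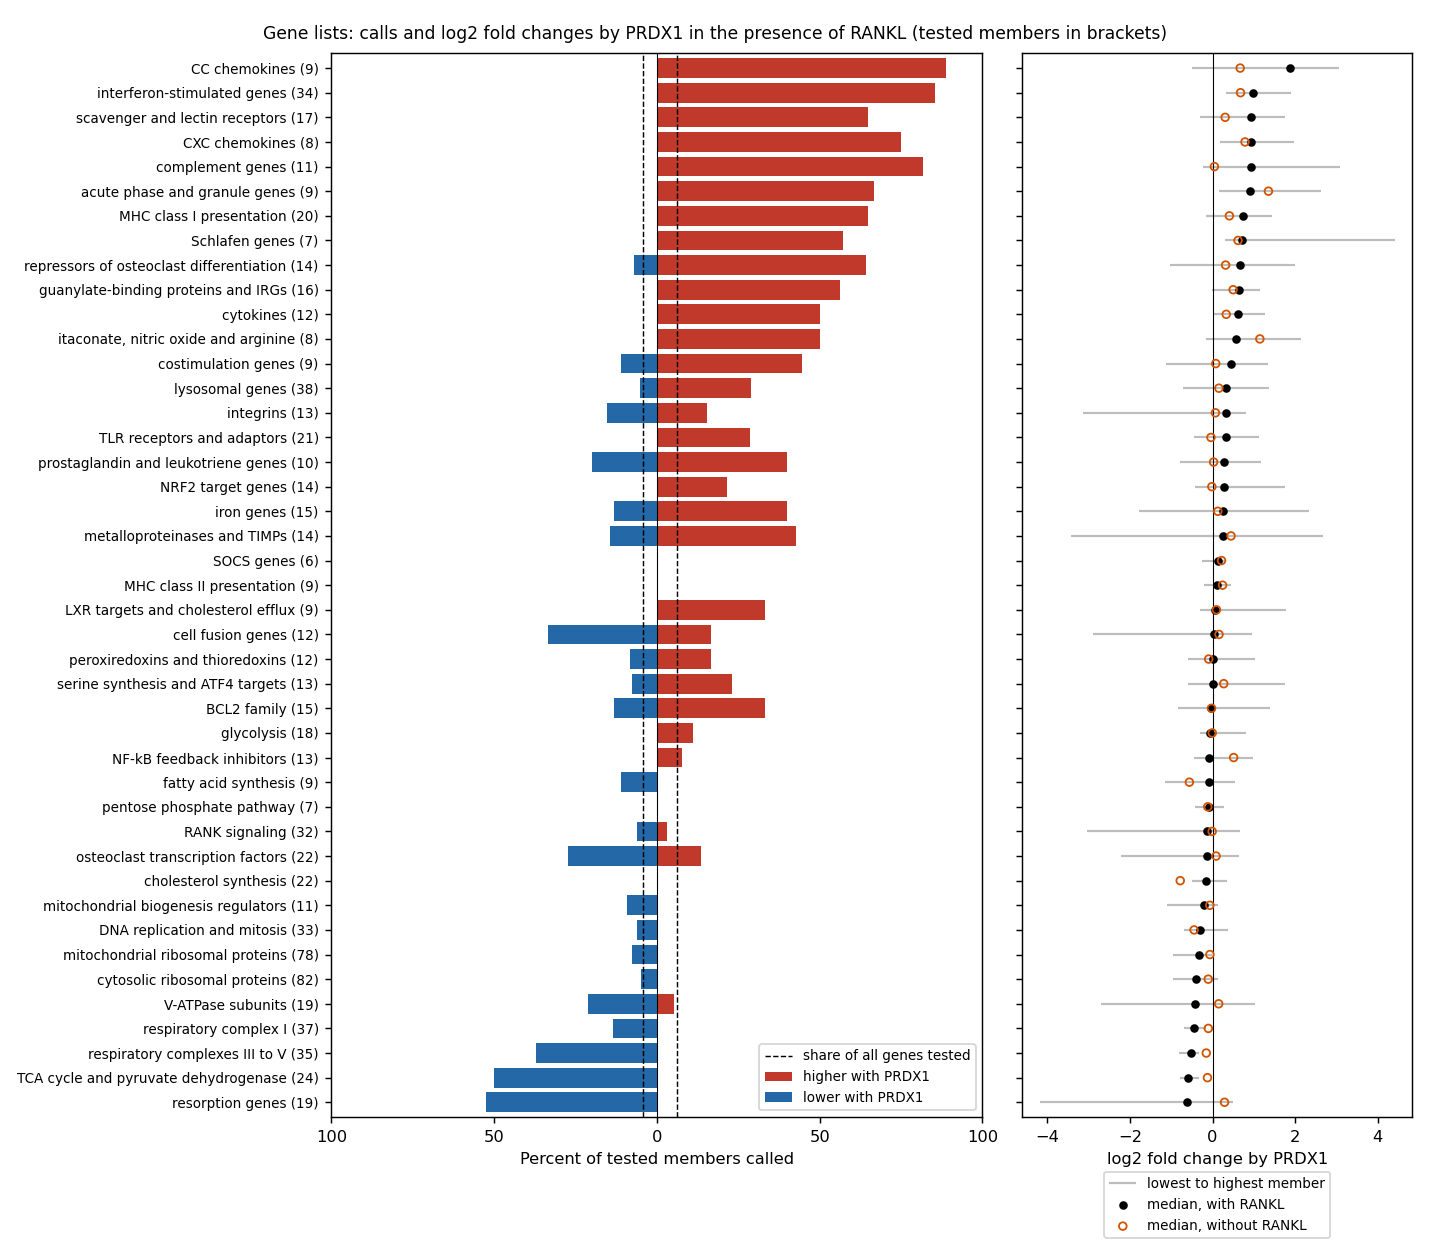
Calls and changes in 43 gene lists, ordered by the median log2 fold change with RANKL. The left panel gives the percent of tested members higher (to the right) and lower (to the left) with PRDX1, with dashed lines at 6.03% and 4.17%, the shares of all genes tested, and the right panel gives the median with and without RANKL and the range of the members with RANKL. CC chemokines had 8 of 9 members higher, and resorption genes 10 of 19 lower.

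Several transcription factors that act with Nfatc1 fell. Of 32 tested genes of RANK signaling 1 was higher and 2 lower, against 6.03% and 4.17% of all genes tested, with a median of -0.13. Without RANKL replicate 2 or RANKL+PRDX1 replicate 1 there were 2 higher, as in both rescaled fits, with a pseudocount of 0.1 and by voom. Tnfrsf11a, RANK itself, had 59.4 and 58.0 FPKM with RANKL and 49.5 and 49.6 FPKM with PRDX1 + RANKL, a change of -0.24 (adjusted p = 0.00234) that did not reach 1.5-fold. Src, the kinase that organizes the actin ring, fell from 37.6 and 41.3 to 14.4 and 14.02 FPKM, and Trem2, a receptor that signals through DAP12, rose from 189 and 202 to 318 and 309 FPKM. Of 22 osteoclast transcription factors 6 were lower and 3 higher, with a median of -0.14. Nfatc1 fell from 50.3 and 55.4 to 15.6 and 15.7 FPKM, a change of -1.69 (standard error 0.08, adjusted p = 1.30e-07), against 9.54 and 11.1 FPKM with M-CSF alone. Jdp2, an AP-1 factor needed for osteoclasts, fell from 158 and 173 to 34.2 and 35.3 FPKM, and Fosl2 from 33.7 and 34.0 to 10.2 and 10.1 FPKM. Fos stood at 117 and 127 FPKM with RANKL and 128 and 139 FPKM with PRDX1 + RANKL, a change of 0.13 (standard error 0.07, adjusted p = 0.182) that did not pass the test. The 3 higher members, Pparg, Jun and Fosl1, changed by 0.62 to 0.64. Jun changed by 0.56 without RANKL replicate 1 and Pparg by 0.58 without RANKL replicate 2, both under the 1.5-fold limit, and without RANKL replicate 1 the list had 1 higher member.

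Repressors of osteoclast differentiation moved the other way. Of the 14 tested 9 were higher and 1 lower, with a median of 0.67. Id1, an inhibitor of basic helix-loop-helix factors, had 8.36 and 8.96 FPKM with RANKL and 36.5 and 38.03 FPKM with PRDX1 + RANKL, a change of 1.99 (standard error 0.06), and its relatives Id2 and Id3 rose by 1.13 and 1.16. Irf7 rose by 1.68, and Irf8, which binds Nfatc1 and holds it back, rose from 7.77 and 7.72 to 23.9 and 25.4 FPKM, a change of 1.55 (standard error 0.06, adjusted p = 2.72e-08). The exception was Rcan1, an inhibitor of calcineurin and itself a target of Nfatc1, which fell from 24.6 and 25.7 to 12.4 and 11.2 FPKM.

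Of 19 resorption genes tested 10 were lower and none higher, with a median of -0.61. Beside those already described, Acp5, the acid phosphatase known as TRAP, fell from 1073 and 1137 to 158 and 166 FPKM, a change of -2.76 (standard error 0.05, adjusted p = 1.39e-09). It remained above the 24.2 and 23.1 FPKM of cells with M-CSF alone. The membrane metalloproteinase Mmp14 fell from 69.3 and 75.8 to 32.3 and 34.9 FPKM. The sorting nexin Snx10, the anion exchanger Slc4a2 and the transporter Slc37a2 fell by 0.96, 0.90 and 0.61 on the log2 scale.

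Subunits of the V-ATPase, the proton pump of lysosomes and of the ruffled border, had 4 of 19 lower and 1 higher, with a median of -0.41. Atp6v0d2, the d2 subunit that osteoclasts use and that also takes part in fusion, fell from 186 and 168 to 27.3 and 25.5 FPKM, a change of -2.69 (standard error 0.08). Atp6v1d and Atp6v1b2 fell by 1.17 and 1.08 on the log2 scale. Atp6v0a1, an a subunit found on lysosomes of many cells, rose from 15.6 in both libraries to 31.3 and 34.6 FPKM. Of 12 fusion genes 4 were lower, Ocstamp, Siglec15, Atp6v0d2 and Dcstamp, and 2 were higher, the metalloproteinase Adam8 and the ATP receptor P2rx7. Dcstamp fell from 47.2 and 41.4 to 7.96 and 7.89 FPKM. The median of the fusion list was 0.04, with members on both sides. Tspan7, a fusion gene that missed the level filter, had 53 and 59 reads with RANKL and 5 and 19 with PRDX1 + RANKL. Cdh1, another that missed it, went the other way, with 37 and 88 reads and then 165 and 132. Adam8 contains the microRNA gene Mir7062 on the same strand.

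Toll-like receptors and their adaptors had 6 of 21 higher and none lower, or 1 lower with a pseudocount of 0.1 or voom, with a median of 0.32. Cd14, the co-receptor that hands lipopolysaccharide to TLR4, had 146 and 147 FPKM with RANKL and 327 and 320 FPKM with PRDX1 + RANKL, a change of 1.14 (standard error 0.04, adjusted p = 2.02e-08). The endosomal receptors Tlr8, Tlr13 and Tlr7 rose by 1.12, 1.05 and 0.85, Tlr2 rose by 0.71 and the inhibitory kinase Irak3 by 0.69. Tlr4 itself had 16.7 and 14.2 FPKM with RANKL and 20.6 and 19.4 FPKM with PRDX1 + RANKL, a change of 0.36 (adjusted p = 0.00452) below the 1.5-fold limit. The adaptors Myd88 and Ticam1 had changes of 0.00 (standard error 0.06) and 0.09 (standard error 0.10), and the NF-κB subunits Rela and Nfkb1 of 0.10 and -0.09, and none of these passed the test. Feedback inhibitors of NF-κB had 1 of 13 higher, Nfkbiz with 0.99, while the median was -0.08 and 8 members were below 0. Nfkbia, which encodes IκBα, had 179 and 184 FPKM with RANKL and 145 in both PRDX1 + RANKL libraries.

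Of 9 CC chemokines tested 8 were higher and none lower, with a median of 1.88, the highest of the 43 lists. Ccl6 rose from 30.7 and 28.3 to 151 in both libraries, Ccl4 from 1.74 and 3.31 to 15.8 and 12.2 FPKM, and Ccl5 from 8.22 and 9.13 to 40.4 and 41.1 FPKM. Ccl2, the main attractant of monocytes, rose from 41.3 and 41.0 to 151 and 152 FPKM. The member that was not called was Ccl9, which osteoclasts make, with 593 and 544 FPKM with RANKL and 408 and 401 FPKM with PRDX1 + RANKL, a change of -0.49 that did not reach 1.5-fold. Of the 8 higher genes, Ccl2, Ccl3, Ccl4, Ccl6, Ccl7 and Ccl12 had higher levels with M-CSF alone than in any library with RANKL, for instance 286 and 307 FPKM of Ccl2 and 64.4 and 75.7 FPKM of Ccl4, and Ccl5 and Ccl22 did not. Of 8 CXC chemokines 6 were higher, with a median of 0.93. Cxcl2 rose from 0.647 and 0.887 to 6.52 and 4.83 FPKM, Cxcl3 from 1.01 and 0.572 to 5.48 and 6.62 FPKM, and Cxcl10 from 117 and 99.0 to 244 and 250 FPKM. Below the level filter, Cxcl9 had 49 and 56 reads with RANKL and 20 and 10 with PRDX1 + RANKL, and Cxcl5 had 2 and 1 reads and then 57 and 42.

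Cytokines had 6 of 12 tested genes higher and none lower, with a median of 0.63. Lif, a cytokine of the interleukin 6 family that missed the level filter and was not tested, had lower values with PRDX1, at 1.47 and 1.31 FPKM (161 and 182 reads) with RANKL and 0.243 and 0.327 FPKM (45 and 55 reads) with PRDX1 + RANKL. Tnf had 12.9 and 13.6 FPKM with RANKL and 33.1 and 33.9 FPKM with PRDX1 + RANKL, a change of 1.27 (standard error 0.06, adjusted p = 1.89e-07). Il1b was low, at 0.301 and 0.195 FPKM with RANKL and 1.13 and 1.87 FPKM with PRDX1. Interferon β (Ifnb1) was at most 2 reads in any library, a depth at which no change was detectable. Acute phase and granule genes had 6 of 9 higher, with a median of 0.90, among them the protease inhibitor Slpi (1.5), S100a9 (1.18) and Lcn2 (1.16). The complement list had 9 of 11 higher, with a median of 0.92. The 3 chains of C1q, which starts the classical pathway, all rose, C1qa from 46.8 and 48.5 to 162 and 161 FPKM, C1qb from 17.6 and 19.9 to 64.7 and 61.2 FPKM and C1qc from 66.5 and 67.9 to 204 and 201 FPKM. The receptor C3ar1 rose from 70.3 and 65.4 to 200 and 203 FPKM.

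All 34 interferon-stimulated genes had a log2 fold change above 0, from 0.33 to 1.89, and 29 of them passed the test as higher. The median was 0.97. Mx1, which blocks influenza virus, rose from 4.47 and 3.37 to 17.5 and 16.7 FPKM, a change of 1.89 (standard error 0.11). The RNA-binding proteins Ifit3, Ifit3b and Ifit2 rose by 1.79, 1.66 and 1.57, and since Ifit3 and Ifit3b are near copies, reads can be split between them. The signal transducer Stat2 rose from 13.1 and 14.5 to 37.9 and 39.1 FPKM. Guanylate-binding proteins and immunity-related GTPases had 9 of 16 higher and none lower, with a median of 0.64, led by Gbp6 at 1.16, Tgtp1 at 0.98 and Tgtp2 at 0.96, of which the last pair are near copies. SOCS genes, feedback inhibitors of cytokine receptors, had 0 of 6 called by limma and 0 by voom, with a median of 0.13, while 2 of them were higher and 1 lower at an unadjusted p under 0.05, and 1 and 1 at an adjusted p under 0.05 but under the 1.5-fold limit. The most abundant SOCS genes were Socs5, at 15.2 FPKM in both RANKL libraries and 12.9 and 12.3 FPKM with PRDX1 + RANKL, and Socs4, at 10.8 and 8.74 against 11.6 and 10.8 FPKM.

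Antigen presentation genes were called in class I. Of 20 class I genes 13 were higher and none lower, with a median of 0.73. Of 9 class II genes 0 were called by limma and 0 by voom, and 4, H2-Aa, H2-Ab1, H2-Eb1 and Cd74, were higher at an adjusted and at an unadjusted p under 0.05 but missed the 1.5-fold limit. The difference between the classes was not tested. H2-Q6 rose from 23.2 and 22.98 to 64.6 and 63.6 FPKM and H2-T23 from 90.3 and 92.6 to 188 and 191 FPKM. H2-Q6, H2-Q7 and H2-T22 overlap H2-Q8, H2-Q9 and H2-T9 in the annotation, so their reads can be shared. The most abundant class II gene, the invariant chain Cd74, had 80.7 and 91.9 FPKM with RANKL and 112 and 115 FPKM with PRDX1 + RANKL, a change of 0.40 (adjusted p = 0.000569) below 1.5-fold. Scavenger and lectin receptors, with which macrophages take up lipoproteins, microbes and dead cells, had 11 of 17 higher and none lower, with a median of 0.93. Marco rose by 1.74, the β-glucan receptor Clec7a by 1.67 and the fatty acid translocase Cd36 by 1.61. Axl and Mertk, kinases that recognize dead cells, rose by 1.55 and 1.12. Costimulation genes had 4 of 9 higher, led by Slamf7 (1.34) and Icosl (1.0), and 1 lower, Tnfrsf9, at 1.75 and 1.99 FPKM with RANKL and 0.359 and 0.276 FPKM with PRDX1. With a mean of at least 1 FPKM required, 0 of this list were lower.

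Lysosomal genes had 11 of 38 higher and 2 lower, with a median of 0.33. Of the cathepsins, Ctsb, Ctsc, Ctsd, Ctsh, Ctsl and Ctss rose, with Ctsb at 462 and 496 FPKM with RANKL and 1237 and 1256 FPKM with PRDX1 + RANKL, a change of 1.38 (standard error 0.04, adjusted p = 1.24e-08). Ctsl, Ctss and Ctsd rose by 1.34, 1.29 and 1.01. Ctsb overlaps Fdft1 on the opposite strand, and the reads were counted on both strands. The lower members were the sulfatase Arsb and the sphingomyelinase Smpd1, which fell by 0.72 and 0.70 on the log2 scale.

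Genes of mitochondrial energy metabolism lay below 0 as a group. All 24 genes of the TCA cycle and pyruvate dehydrogenase had a log2 fold change below 0, from -0.80 to -0.32, with a median of -0.59, and 12 of them passed the test as lower. Idh3g, a subunit of the isocitrate dehydrogenase of the cycle, had 106 and 105 FPKM with RANKL and 58.6 and 61.8 FPKM with PRDX1 + RANKL, a change of -0.80 (standard error 0.07). Mdh2, malate dehydrogenase, fell from 300.4 and 329 to 185 and 190 FPKM, and with M-CSF alone it had 162 and 169 FPKM. Without RANKL the TCA list had a median of -0.12. All 37 genes of respiratory complex I were below 0 with a median of -0.44, and 5 were lower, among them Ndufa4, from 328 and 308 to 197 and 194 FPKM. Without RANKL replicate 2 or RANKL+PRDX1 replicate 2 there were 8 such calls, and without RANKL+PRDX1 replicate 1 there were 9. All 35 genes of complexes III to V were below 0 with a median of -0.52, and 13 were lower, or 8 under quantile normalization or upper quartile scaling. Uqcrh of complex III fell from 227 and 235 to 136 and 126 FPKM, and Cyc1, cytochrome c1, from 137 and 138 to 79.4 and 80.8 FPKM, against 62.7 and 66.2 FPKM with M-CSF alone. Ppargc1b, a coactivator that raises mitochondrial genes in osteoclasts, was the called member of the 11 regulators of mitochondrial biogenesis (2 were called lower without RANKL replicate 2), at 3.03 and 3.35 FPKM with RANKL and 0.974 and 0.936 FPKM with PRDX1.

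Genes of both kinds of ribosome also lay mostly below 0. Of 78 mitochondrial ribosomal proteins 6 were lower and none higher, with a median of -0.34 and all members below 0. The largest of these changes was that of Mrps6, from 43.0 and 51.0 to 22.3 and 24.9 FPKM, and Mrps6 overlaps Slc5a3 on the same strand. Of 82 cytosolic ribosomal proteins 4 were lower (Rpl30, Rpl22l1, Rpl23a and Rps27a), near the background of 4.17%, and 80 were below 0, with a median of -0.40. Upper quartile scaling gave 2 such calls, without Rpl23a (-0.57) and Rps27a (-0.54). Under quantile normalization Rpl23a (-0.48) and Rps27a (-0.38) were also under the 1.5-fold limit. Rps27a was under that limit as well without RANKL replicate 2 (-0.42) or RANKL+PRDX1 replicate 1 (-0.58). Rpl30 fell from 331 and 302 to 179 and 169 FPKM and overlaps its near copy Gm12191. In the shortest of 4 equal classes of transcript length the median log2 fold change was -0.14, with 6.87% of genes higher and 6.29% lower, and in the longest class it was -0.02, with 4.85% higher and 2.94% lower. Both shares were larger in the shortest class than in the longest. Of complex I 94.6%, of complexes III to V 82.9%, of mitochondrial ribosomal proteins 78.2% and of cytosolic ribosomal proteins 89.0% were in the shortest class, and of the TCA cycle list 41.7%. The part of transcript length in these values was not tested. The shortest class also held 77.8% of the CC chemokines.

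**Figure D4:**
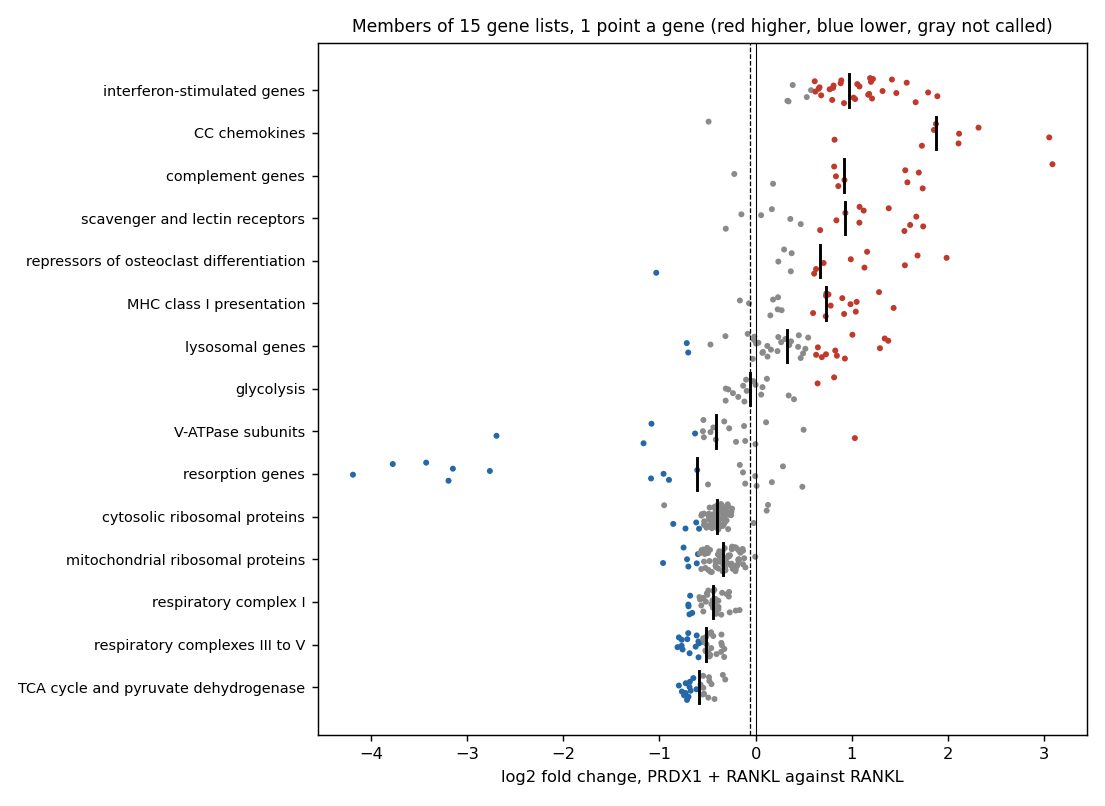
Log2 fold changes of the tested members of 15 gene lists, PRDX1 + RANKL against RANKL. Each point is 1 gene, the black bar is the median of the list, the solid line is 0 and the dashed line is the median of all genes tested, -0.06. The members of the TCA cycle, complex I and complexes III to V lie wholly below 0, and the interferon-stimulated genes wholly above 0.

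Of 18 glycolysis genes 2 were higher, against 6.03% of all genes tested, Pfkfb3 (0.82) and Hk3 (0.64, or 0.57 without RANKL replicate 1), and of 7 genes of the pentose phosphate pathway 0 were called by limma and 0 by voom, with 1 higher and 2 lower at an adjusted and at an unadjusted p under 0.05. In the list of itaconate, nitric oxide and arginine genes 4 of 8 were higher. Acod1, which makes itaconate from an intermediate of the TCA cycle, had 2.37 and 2.76 FPKM with RANKL and 14.8 in both PRDX1 + RANKL libraries, a change of 2.15 (standard error 0.09, adjusted p = 9.07e-08). The arginine transporter Slc7a2 and the argininosuccinate synthase Ass1 rose by 1.22 and 1.0, and Ass1 overlaps its near copy Gm5424. Cholesterol synthesis had 0 of 22 called with RANKL by limma and 0 by voom, with a median of -0.16 and with 2 higher and 11 lower at an unadjusted p under 0.05, of which 1 and 10 had an adjusted p under 0.05. Fatty acid synthesis had 1 of 9 lower, the desaturase Scd2, from 14.1 and 15.4 to 6.09 and 6.11 FPKM. A pseudocount of 0.1, voom, upper quartile scaling and leaving out RANKL+PRDX1 replicate 1 each gave 1 higher gene in that list. Of 9 LXR targets and efflux genes 3 were higher. Apoe and Abca1, which carry cholesterol out of macrophages, rose by 1.79 and 0.99, and Apoe went from 134 and 161 to 504 and 516 FPKM.

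Antioxidant and iron genes changed in part. The endogenous Prdx1 gene, which shares its name with the protein added, had 620 and 567 FPKM with RANKL and 1231 and 1182 FPKM with PRDX1 + RANKL, a change of 1.02 (standard error 0.05, adjusted p = 2.60e-07). Prdx5 rose by 0.68 and Prdx2 fell by 0.60 on the log2 scale, out of 12 peroxiredoxins and thioredoxins. For Prdx2, upper quartile scaling gave -0.55 and quantile normalization -0.49, both under the 1.5-fold limit. Of 14 NRF2 target genes 3 were higher, the cystine transporter Slc7a11 (1.75), heme oxygenase Hmox1 (1.63) and Gclm (1.05), and 5 were higher with upper quartile scaling or without RANKL+PRDX1 replicate 1. Prdx1 and Prdx5 overlap other genes on the opposite strand. The iron list had 6 of 15 higher and 2 lower, with a median of 0.25. Slc40a1 (ferroportin), the iron exporter, had 1.15 and 1.202 FPKM with RANKL and 10.1 and 9.95 FPKM with PRDX1 + RANKL, a change of 2.34 (standard error 0.06). The ferritin heavy chain Fth1 rose from 2629 and 2773 to 7603 and 7571 FPKM. The transferrin receptor Tfrc, which brings iron in, fell from 118 and 110 to 67.6 and 64.6 FPKM. The reductase Steap4 fell from 2.91 and 2.65 to 0.152 and 0.046 FPKM. Its RANKL libraries alone were enough to bring it past the filter of a mean of 0.5 FPKM over the 8 libraries. With a mean of at least 1 FPKM required, Steap4 was not tested and 1 iron gene was lower.

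Proteases, adhesion and survival genes split within their families. Of 14 metalloproteinases and inhibitors 6 were higher and 2 lower, with a median of 0.24. Mmp12, the macrophage elastase, rose from 40.8 and 33.4 to 219 and 214 FPKM and Mmp8 from 3.53 and 2.44 to 9.17 and 8.31 FPKM, against the fall of Mmp9 and Mmp14 given above. Of 13 integrins 2 were higher, Itgax and Itgal, and 2 lower, Itgb3 and Itga4, with a median of 0.32. Itga4 changed by -0.58 under quantile normalization and without RANKL+PRDX1 replicate 1 and by -0.57 under upper quartile scaling, which left 1 lower integrin, while quantile normalization, a pseudocount of 0.1 and voom on the recovered reads each gave 4 higher. Itga2, the α2 integrin, missed the level filter and was not tested, with 193 and 245 reads in the RANKL libraries and 7 and 14 in the PRDX1 + RANKL libraries. In the BCL2 family 5 of 15 were higher, among them Bcl2l1, from 8.77 and 8.64 to 24.8 and 23.96 FPKM, and 2 lower, the death genes Pmaip1 and Bmf. The copies Bcl2a1a, Bcl2a1b and Bcl2a1d are alike in sequence, and their values of 0.86, 1.37 and 0.89 may be shared. Bcl2a1a did not pass the test of limma with a pseudocount of 0.1. Of 10 prostaglandin and leukotriene genes 4 were higher, with Ptger2 at 1.18 and Ptges at 0.99, and 2 lower, Alox5 and Hpgd. Of 13 serine synthesis and ATF4 target genes 3 were higher, Slc7a11, Trib3 (1.52) and Ddit3 (1.03), and 1 lower, Shmt1, which was under the 1.5-fold limit in both rescaled fits (-0.57 and -0.56), without RANKL replicate 2 (-0.48) and without RANKL+PRDX1 replicate 1 (-0.54). DNA replication and mitosis had 2 of 33 lower, Cdc20 and Bub1b, and none higher, with a median of -0.29. Bub1b changed by -0.55 under quantile normalization or upper quartile scaling and by -0.56 without RANKL replicate 1, which left 1 lower gene in each case, and Cdc20 by -0.58 without RANKL replicate 2.

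The effect of PRDX1 with RANKL was set beside its effect without RANKL, which was measured in 4 other libraries. Without RANKL 445 genes (3.80%) were higher and 233 (1.99%) lower. The genes that rose in both settings numbered 280, which is 39.7% of those higher with RANKL and 62.9% of those higher without it, and the genes that fell in both numbered 37, which is 7.58% and 15.9%. Of the genes higher with RANKL, 9 were called lower without it, and of the genes lower with RANKL, 16 were called higher without it. The 705 higher genes had a median change of 0.45 without RANKL, and the 488 lower genes one of -0.08.

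**Figure D5:**
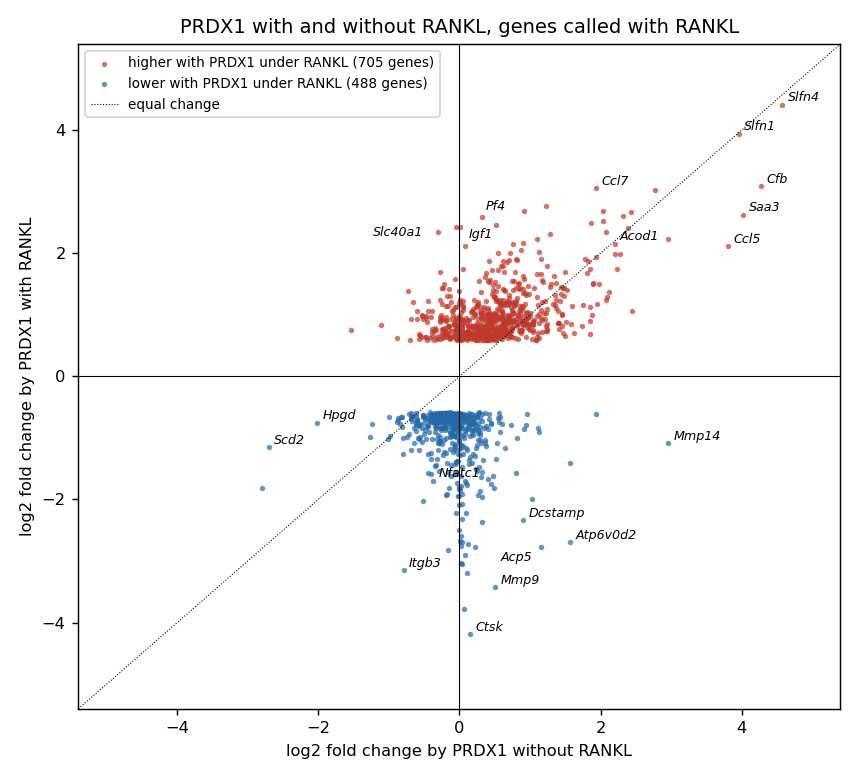
Log2 fold changes by PRDX1 without RANKL (horizontal) and with RANKL (vertical) for the genes called with RANKL, 1 point a gene; the dotted line marks equal change. The 705 higher genes lie above the horizontal axis with a median of 0.45 without RANKL, and the 488 lower genes lie below it with a median of -0.08.

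Over all genes tested 4.50% had an interaction of PRDX1 and RANKL above 0 and 4.35% one below 0. Slfn4 and Slfn1 changed by nearly the same amount in both settings, 4.57 and 3.96 without RANKL, and their interaction was -0.16 (adjusted p = 0.617) and -0.02 (adjusted p = 0.966). Acod1 and Mmp13 were alike in this respect, with interactions of -0.05 (adjusted p = 0.828) and 0.25 (adjusted p = 0.274). Cfb, Ccl5 and Saa3 rose more without RANKL, by 4.27, 3.80 and 4.02, with interactions of -1.19, -1.69 and -1.39 (adjusted p = 6.27e-05, 2.25e-06 and 0.00252). These 3 genes had similar levels with PRDX1 in both settings, for Cfb 46.7 and 46.2 FPKM without RANKL, and differed mainly in the libraries without PRDX1, where Cfb had 1.49 and 1.42 FPKM without RANKL.

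A further set of genes rose more in the presence of RANKL by the interaction test. Igf1 had 118 and 113 FPKM with M-CSF alone, 116 and 117 FPKM with PRDX1 alone, 7.26 and 6.99 FPKM with RANKL and 43.6 and 42.1 FPKM with PRDX1 + RANKL, so that PRDX1 changed it by 0.00 without and 2.43 with RANKL, an interaction of 2.43 (adjusted p = 4.42e-08). The C1q chains were similar, with changes between -0.28 and 0.04 without RANKL and interactions of 1.69 for C1qa, 1.97 for C1qb and 1.65 for C1qc. For Fcgr1, the high-affinity IgG receptor, the interaction was 1.95, with levels of 112 and 113 FPKM with M-CSF alone, 9.07 and 7.90 FPKM with RANKL and 50.1 and 52.4 FPKM with PRDX1 + RANKL. In each of these genes the PRDX1 + RANKL libraries lay between those with RANKL and those with M-CSF alone. Toll-like receptors and adaptors had 6 of 21 higher with RANKL but 0 higher and 1 lower without it, and 6 had a called interaction above 0.

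Among the lower genes, PRDX1 had the opposite effect without RANKL on several osteoclast genes. Acp5 had 24.2 and 23.1 FPKM with M-CSF alone and 53.9 and 53.5 FPKM with PRDX1 alone, a rise of 1.15 (adjusted p = 2.16e-07). Atp6v0d2 rose from 6.96 and 7.02 to 24.5 and 21.0 FPKM, Dcstamp from 1.72 and 1.55 to 4.42 and 3.49 FPKM, Src from 0.698 and 0.798 to 4.13 and 4.19 FPKM and Mmp14 from 1.02 and 0.771 to 13.1 and 14.3 FPKM. All 5 were called higher without RANKL and lower with it. With PRDX1 the level of Atp6v0d2 was 24.5 and 21.0 FPKM without RANKL and 27.3 and 25.5 FPKM with it. In contrast, Scd2 and Hpgd fell in both settings and fell more without RANKL, with changes of -2.70 and -2.02. Cholesterol synthesis genes, of which 0 of 22 were called with RANKL, had 17 lower without it, with a median of -0.78, and 15 of the 22 had a called interaction above 0. For Fdps, an enzyme of that pathway, the changes were -0.50 with and -1.27 without RANKL, an interaction of 0.77 (adjusted p = 0.000126).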

How the data were processed

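Bulk RNA-seq of 8 libraries, 2 in each of 4 groups, was analysed, and the RANKL and PRDX1 + RANKL libraries were compared. The authors deposited a table of FPKM values per gene. The submitters' processing notes name HISAT2, HOMER, DESeq2 and the genome build mm10, with no versions. Reads were recovered from the FPKM values with the transcript length in the table and a library total fitted so that reads came out whole. Of the 8681 to 11262 genes checked in a library, 100% lay within 0.1 read of a whole number, beyond rounding. This share follows in part from the fit. These reads gave the depth and an alternative test. Per the file headers, HOMER counted exon reads of both strands and kept 1 transcript a gene, so overlapping genes can share reads. Groups were compared with limma 3.58.1 in R 4.3.3 on log2(FPKM + 1), with a mean-variance trend and 1 model of the 4 groups, on genes whose mean was 0.5 FPKM or more. A call needed a Benjamini-Hochberg adjusted p under 0.05 and a 1.5-fold change or more. A fold change on this scale understates the change of low genes. With 2 libraries against 2, an exact permutation test of one gene cannot reach 0.05, so the test rests on the spread shared across genes. The scripts were tested on simulated data.

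Gene lists and members were chosen with earlier results of these data known. Named genes were the 10 largest increases and decreases among calls whose groups do not overlap. In each list they were up to 4 called members by absolute change and up to 2 against its median. In lists with fewer than 2 calls the 2 most abundant members were named as well. The genes the study names and the genes whose promoters are printed were also named. So were the 5 largest interactions in each direction among genes called with RANKL. Adam8, Bmf, C3ar1, Ccl2, Ccl3, Ccl9, Ccl12, Ccl22, Cdh1, Ctsc, Ctsh, Cxcl5, Cxcl9, Fosl1, Fth1, H2-Ab1, H2-Eb1, Id2, Irak3, Itga2, Lif, P2rx7, Pmaip1, Slc37a2, Slc4a2, Snx10, Stat2, Tlr2 and Tspan7 were named after their values were seen. Some list members are not reported here by name. Alternatives were another pseudocount, other filters, other scalings, voom on the recovered reads, a replicate block, the 4 libraries alone and leaving out each library.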

Additional observations from a re-analysis of the deposited data

Results flagged for a closer look

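The effect of PRDX1 with RANKL differed from its effect without RANKL, by the interaction term of limma on log2(FPKM + 1), in the 10 genes given here. They had the 5 largest interactions in each direction among genes called both with RANKL and for the interaction. They were thus chosen in part on the change with RANKL, which enters the interaction. The interaction was -4.33 for Ctsk, -4.26 for Atp6v0d2, -4.05 for Mmp14, -3.94 for Mmp9 and -3.91 for Acp5, all osteoclast genes that PRDX1 lowered with RANKL. Without RANKL, Acp5, Atp6v0d2 and Mmp14 were called higher with PRDX1, and Ctsk and Mmp9 were not called.

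The interaction was 2.65 for the iron exporter Slc40a1, 2.43 for the growth factor Igf1 and 2.28 for the chemokine Pf4. Pf4 had 673 and 590 FPKM with M-CSF alone, 810 and 763 FPKM with PRDX1 alone, 42.9 and 38.9 FPKM with RANKL and 263 and 240 FPKM with PRDX1 + RANKL. In all 3 genes the PRDX1 + RANKL libraries lay between those with RANKL and those with M-CSF alone.

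The microRNA genes Mir7062 (2.49) and Mir7029 (2.29) rest on few reads. Mir7062, of 65 bases, had 0 and 3 reads with RANKL and 14 and 30 with PRDX1 + RANKL, and it lies within Adam8 on the same strand. Mir7029, of 60 bases within Gcn1, had 1 and 0 reads with RANKL and 3 and 3 with PRDX1 + RANKL, a change of 0.75, and 4 and 4 reads with M-CSF alone and 0 and 0 with PRDX1 alone, a change of -1.54. Its change with RANKL did not pass the test without a filter on low values, by voom, without RANKL replicate 2 or without RANKL+PRDX1 replicate 2.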

How the results depend on the processing

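No gene called with RANKL was called in the other direction under any alternative. Without a fold threshold 1979 genes were higher and 2998 lower with RANKL, 1425 higher and 2059 lower without it, and 2707 had an interaction. With a fold of at least 2 these were 245, 140, 149, 38 and 335. Without RANKL the lower genes numbered 360 with a pseudocount of 0.1 and 389 with voom on recovered reads. A pseudocount of 0.1 gave 944 higher and 592 lower genes with RANKL and 1239 interactions, against 705, 488 and 1036. Voom on recovered reads gave 965, 635 and 1327. Upper quartile scaling gave 773 higher and 412 lower with RANKL (65.2% higher, against 59.1%). Leaving out 1 library gave 697 to 749 higher and 483 to 517 lower with RANKL, 437 to 481 and 233 to 266 without it, and 983 to 1094 interactions, with the lone library of a group assumed to vary like the others. Genes of complexes III to V called lower numbered 8 under quantile normalization or upper quartile scaling, against 13. Fits with a replicate block gave 705 higher and 487 lower genes, 444 and 232 without RANKL and 1042 interactions. The differences between the 2 libraries of a group correlated little between groups (0.0085 to 0.0965). Such values cannot show whether libraries with the same number shared a culture or animal, so pairing was not settled. List medians near 0, those of class II presentation, glycolysis, the pentose phosphate pathway, fatty acid synthesis, LXR targets, the BCL2 family and serine synthesis, changed sign under some alternatives, and no direction is given for them. Depth limited genes such as Ifnb1, at most 2 reads a library.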
